A study of Mus musculus with 24 samples.

Results

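Antibody capture of methylated DNA (MeDIP-seq) gave 2 lists of regions for mouse bone marrow cells that carry mutant IDH1: 4564 regions tagged iMR and 3789 tagged deMR. They were taken as the MeDIP lists attached to the mutant samples, and together made up 8353 of the 35234 methylation regions listed in the series. The iMRs are attached to the vitamin C library, whose cells received 0.345 mM vitamin C at 0, 24 and 48 h and were harvested at 72 h. The deMRs are attached to the untreated library, whose harvest time was not found in the labels. Both groups were bone marrow cells immortalized with HOXA9 and carrying a vector for IDH1 R132H. Both grew with serum, 6 ng/ml IL-3, 10 ng/ml IL-6 and 20 ng/ml SCF. The labels name neither the promoter of the vector nor whether the cells are 1 clone. Each group held 1 library, so all values describe these libraries and no p-value was calculated. The tags are the authors' own. Neither labels nor files state the direction of the methylation difference, its threshold or the libraries compared, so the lists are called by their tags throughout. In WGBS of the same cells the attachment is the other way round, with the iMR list on the untreated and the deMR list on the vitamin C sample.

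Cytosine methylation in mammals sits mainly on CpG dinucleotides. TET enzymes oxidise it with 2-oxoglutarate as a co-substrate, and 2-hydroxyglutarate, the product of IDH1 R132H, competes with that co-substrate. Ascorbate supports such iron-dependent dioxygenases by reducing their iron. Enhancers are commonly marked by H3K4me1, with H3K27ac added when they are active, and gene starts by H3K4me3. PU.1 (Spi1) and Runx1 are transcription factors that bind many myeloid enhancers.

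The RNA libraries held 111453443 counts with vitamin C and 86804487 counts untreated. All 8 markers of myeloid progenitors were found, at 5.07 to 1487 RPKM with vitamin C and 32.1 to 3062 RPKM untreated. The top of both ranges was Hoxa9, and HOXA9 was used to immortalize these cells, so its level does not speak for the cell type. The 8 markers summed to 3148 RPKM with vitamin C and 6627 RPKM untreated, and each was lower with vitamin C. RPKM is the authors' read count scaled to gene length and library size. The 4 markers of mast cells and basophils summed to 2634 RPKM with vitamin C and 1974 RPKM untreated, nearly all of it Cpa3, a mast cell protease, and Mcpt8, a basophil protease, while Fcer1a, a chain of the IgE receptor, was at 0.0420 and 0 RPKM. The 4 megakaryocyte markers summed to 152 RPKM with vitamin C and 160 RPKM untreated, led by Itga2b. The B cell markers Cd79a, Pax5 and Ebf1 and each of the 4 fibroblast markers were under 1 RPKM in both libraries. The T cell markers summed to 4.48 RPKM with vitamin C and 4.43 RPKM untreated, almost all Lck, with Cd3e at 0. The erythroid markers summed to 4.36 RPKM with vitamin C and 1.41 RPKM untreated, mostly Gata1, with Alas2 at 0. In bulk samples, fewer cells of a type and less RNA per cell cannot be told apart, and the part of any such shift in the region lists was not tested.

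A few gene starts lay under a listed region, and the DNA of 6 of them is shown because it holds the CpG sites that the antibody can capture there. Each run covers 250 bases before a gene start and 50 after it, from RefSeq on GRCm38.p6, with every CG in capitals. In S1pr3, a sphingosine 1-phosphate receptor (chr13:51408368-51408667, plus strand), in Ednrb, the endothelin receptor B (chr14:103843652-103843951, minus strand), and in Ddx4, a germ cell RNA helicase (chr13:112652261-112652560, minus strand), an iMR covered the whole run. In Galnt6, an enzyme that starts O-linked glycans (chr15:100729327-100729626, minus strand), a deMR covered the whole run. In Csf2ra, a GM-CSF receptor chain (chr19:61228369-61228668, minus strand), a deMR covered bases 1 to 168, and in Gdf15, a stress-induced secreted factor (chr8:70632407-70632706, minus strand), bases 1 to 206.
S1pr3: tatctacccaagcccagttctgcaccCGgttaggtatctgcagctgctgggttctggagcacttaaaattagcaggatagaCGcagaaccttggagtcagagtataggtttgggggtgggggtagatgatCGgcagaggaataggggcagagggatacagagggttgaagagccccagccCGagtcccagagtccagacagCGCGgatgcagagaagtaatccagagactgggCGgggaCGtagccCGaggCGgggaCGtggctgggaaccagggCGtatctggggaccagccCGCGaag
Ednrb: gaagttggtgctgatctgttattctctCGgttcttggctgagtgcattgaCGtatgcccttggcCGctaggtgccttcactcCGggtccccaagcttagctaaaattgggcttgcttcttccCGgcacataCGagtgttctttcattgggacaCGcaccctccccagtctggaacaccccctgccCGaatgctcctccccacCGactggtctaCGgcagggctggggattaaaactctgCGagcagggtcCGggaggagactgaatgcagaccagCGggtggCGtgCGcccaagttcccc
Ddx4: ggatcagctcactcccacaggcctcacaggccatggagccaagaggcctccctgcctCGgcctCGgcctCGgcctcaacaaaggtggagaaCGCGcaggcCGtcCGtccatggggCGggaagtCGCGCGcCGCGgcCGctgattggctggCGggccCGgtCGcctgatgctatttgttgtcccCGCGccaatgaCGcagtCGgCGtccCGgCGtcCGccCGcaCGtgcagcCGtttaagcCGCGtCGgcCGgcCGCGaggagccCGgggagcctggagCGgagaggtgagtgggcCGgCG
Galnt6: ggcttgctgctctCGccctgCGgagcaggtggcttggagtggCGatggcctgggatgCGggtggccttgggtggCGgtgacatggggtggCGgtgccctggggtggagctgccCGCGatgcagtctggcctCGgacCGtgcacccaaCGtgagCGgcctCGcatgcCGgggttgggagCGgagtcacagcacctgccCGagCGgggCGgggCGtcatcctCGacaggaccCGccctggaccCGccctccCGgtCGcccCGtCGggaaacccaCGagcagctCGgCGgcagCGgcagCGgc
Csf2ra: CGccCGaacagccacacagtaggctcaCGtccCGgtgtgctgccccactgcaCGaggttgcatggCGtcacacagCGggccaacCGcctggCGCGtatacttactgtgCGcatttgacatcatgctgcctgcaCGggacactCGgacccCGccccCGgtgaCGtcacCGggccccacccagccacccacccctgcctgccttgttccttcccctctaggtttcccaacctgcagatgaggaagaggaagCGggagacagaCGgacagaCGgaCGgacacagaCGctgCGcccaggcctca
Gdf15: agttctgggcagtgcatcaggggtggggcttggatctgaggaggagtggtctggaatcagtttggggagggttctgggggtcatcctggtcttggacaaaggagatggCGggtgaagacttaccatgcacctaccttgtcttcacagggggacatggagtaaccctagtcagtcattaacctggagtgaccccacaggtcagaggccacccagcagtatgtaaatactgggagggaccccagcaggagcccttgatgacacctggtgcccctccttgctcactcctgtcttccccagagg
The runs under iMRs held 14 CpGs in S1pr3, 15 in Ednrb and 38 in Ddx4, and those under deMRs 31 in Galnt6, 23 in Csf2ra and 1 in Gdf15. Both ends of the range of CpG content were therefore met. Over all annotated starts met by a region, 41 promoter windows met by iMRs had a median of 13 CpGs, 42 met by deMRs had 9, and all 20062 windows had 14. At least 15 CpGs were present in 36.6% of windows met by iMRs and 35.7% of those met by deMRs, against 48.1% of all windows.

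Regions of both lists were short windows of similar size. The median length was 500 bp in both, the longest iMR was 2000 bp and the longest deMR 1500 bp. Lengths of 1000 bp or more were found in 17.7% of iMRs and 15.8% of deMRs. Most regions began on a grid of 250 bp, but 339 iMRs (7.43%) and 425 deMRs (11.2%) did not. The longest iMR lay in Arhgap28, a GTPase-activating protein, at chr17:67953501-67955500, and met an iMR from whole-genome bisulfite sequencing (WGBS) and no listed peak. Of the 5 longest deMRs, the one in Hdac7, a histone deacetylase of blood and vessel cells, at chr15:97819501-97821000, met H3K4me1, H3K4me3, H3K27ac and PU.1 peaks of both libraries and a region of the MeDIP list that is tagged mutant and attached to untreated wild-type cells.

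The lists differed in the chromatin they lay on. H3K4me1 peaks of the vitamin C library met 174 iMRs, 3.81% (95% interval 3.28 to 4.41), and 641 deMRs, 16.9% (15.7 to 18.2), against 5.43% of all autosomal 500-bp tiles. Peaks of the untreated library met 5.96% of iMRs (5.29 to 6.69) and 24.4% of deMRs (23.0 to 25.8), against 8.73% of tiles. The iMRs thus met H3K4me1 less often than the tiled genome did and the deMRs more often, 3.12-fold over tiles for vitamin C peaks and 2.79-fold for untreated peaks. As a ratio of deMR to iMR shares H3K27ac with vitamin C differed most among histone peak lists, 8.15-fold. These peaks met 1.21% of iMRs (0.909 to 1.57) and 9.82% of deMRs (8.89 to 10.8), against 2.76% of tiles. H3K4me3 peaks of the vitamin C library met 1.95% of iMRs and 9.11% of deMRs, against 3.11% of tiles. These intervals cover counting error only, since the regions of a list come from 1 library or 1 pair of libraries.

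**Figure D1:**
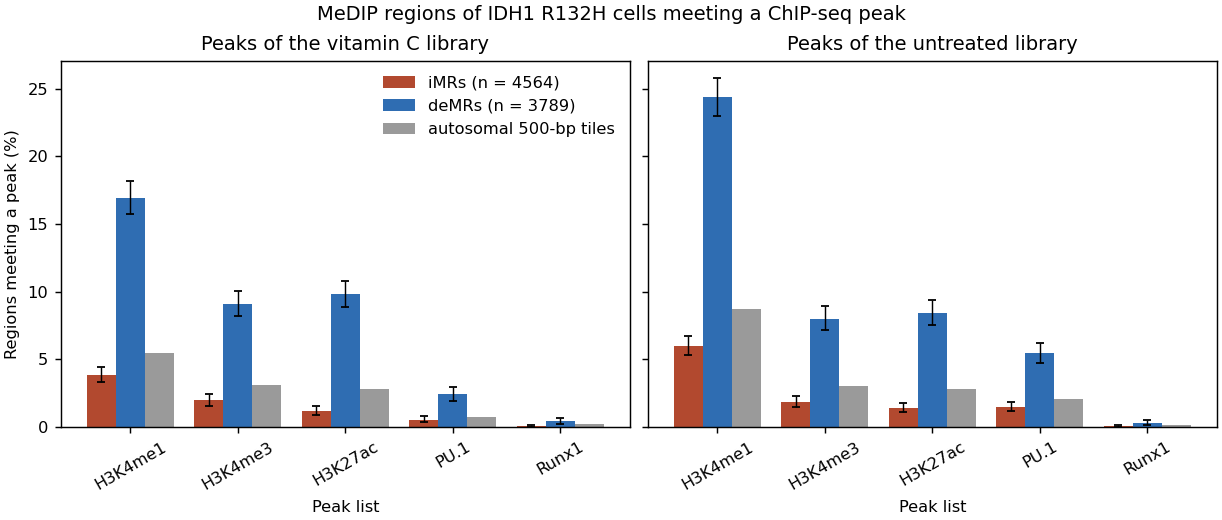
Percent of iMRs (red), deMRs (blue) and autosomal 500-bp tiles (grey) that met a peak of each list, for peaks of the vitamin C library (left) and the untreated library (right). Bars on the region lists are exact 95% binomial intervals. In each of the 10 peak lists the deMR bar stands above the tiles and the iMR bar below them.

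PU.1 and Runx1 peaks followed the histone marks. PU.1 peaks of the vitamin C library met 24 iMRs (0.526%) and 91 deMRs (2.40%), against 0.748% of tiles, and those of the untreated library met 67 iMRs (1.47%) and 206 deMRs (5.44%), against 2.04% of tiles. Runx1 peaks met 1 iMR and 16 deMRs in the vitamin C library and 1 iMR and 10 deMRs untreated, so few that only the order of the lists can be read from them. Each region was sorted into the first class it met, in the order H3K4me3, H3K27ac, H3K4me1, then PU.1 or Runx1. This left 91.0% of iMRs (90.1 to 91.8) and 66.5% of deMRs (64.9 to 68.0) with no listed peak of either library, against 87.5% of tiles. H3K4me1 without H3K4me3 or H3K27ac, but with or without PU.1 or Runx1, marked 5.81% of iMRs and 18.98% of deMRs, against 7.53% of tiles. H3K27ac without H3K4me3, the usual pattern of an active distal enhancer, marked 13 iMRs (0.285%) and 134 deMRs (3.54%), against 0.760% of tiles, a 4.65-fold excess for deMRs. Those 134 deMRs lay a median of 32.35 kb from the nearest gene start.

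Close to peaks the deMRs again stood above the tiles, while the iMRs, below the tiles on peaks, were slightly above them within 20 kb. Of the iMRs 52.0% lay on or within 20 kb of a histone peak, and of the deMRs 81.9%, against 50.9% of tiles. Overlap with a peak was lower for iMRs and higher for deMRs than for tiles in each kind of position. Within genes of at least 1 RPKM in the untreated library, 24.7% of iMRs (21.7 to 28.0) and 46.9% of deMRs (44.4 to 49.5) met a listed peak, against 34.6% of tiles. Within genes under 1 RPKM the shares were 5.29% of iMRs (4.09 to 6.72) and 17.0% of deMRs (14.3 to 20.05), against 6.20% of tiles. The tile value there lies inside the iMR interval. Outside protein-coding genes they were 6.10% of iMRs and 27.5% of deMRs, against 8.15% of tiles. On each of the 19 autosomes the share with a peak was lower for iMRs, 5.19% to 14.9%, than for deMRs, 24.0% to 42.5%. The iMR share was below that of tiles on 17 of the 19, and the deMR share above it on all 19.

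**Figure D2:**
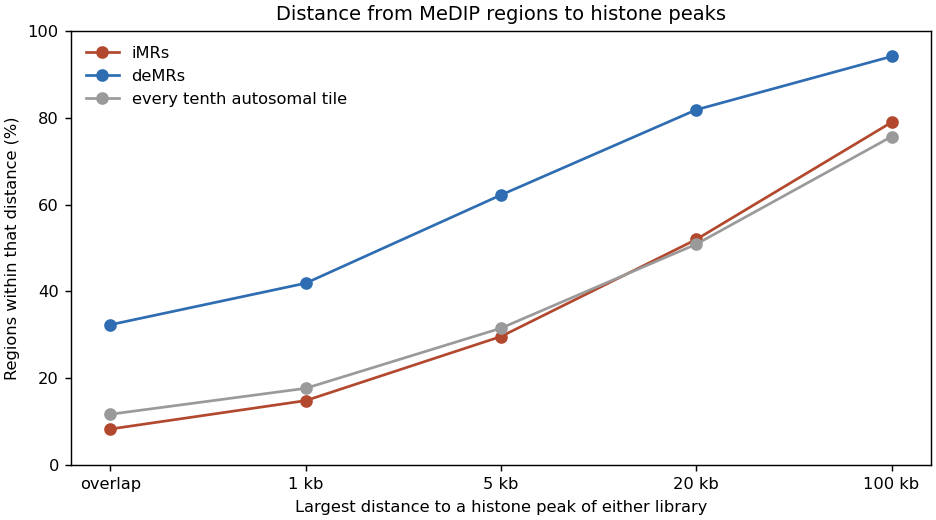
Cumulative percent of iMRs (red), deMRs (blue) and 1 in 10 autosomal tiles (grey) that lay within the distance on the horizontal axis of a histone peak of either library. The deMR line starts at 32.3% on a peak and reaches 94.2% within 100 kb, while the iMR line starts at 8.24% and reaches 79.0%.

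Peaks called in only 1 of the 2 libraries were then counted under the regions, which asks whether marks gained or lost with vitamin C fell on them. H3K27ac peaks under deMRs were listed in the vitamin C library only at 84 regions, in both libraries at 288 and in the untreated library only at 31. Of the 115 deMRs with a peak in 1 library, 73.0% (64.0 to 80.9) thus had it with vitamin C, against 47.7% of tiles. Under iMRs 4 of 16 such regions had it with vitamin C (7.27% to 52.4%). H3K4me3 behaved alike under deMRs, with 68 regions marked in the vitamin C library only and 26 in the untreated only, 72.3% (62.2 to 81.1) with vitamin C against 54.8% of tiles. H3K4me1 did not follow this pattern: 29.6% of deMRs and 29.9% of iMRs with a peak in 1 library had it with vitamin C, against 26.4% of tiles. PU.1 peaks were listed in the untreated library only at 119 deMRs and with vitamin C only at 4, and tiles had the same lean, 3.017% with vitamin C. The ChIP libraries' depth is unknown, and lists of unequal length, 45657 H3K4me1 peaks with vitamin C against 57750 untreated and 23522 PU.1 peaks against 61611, shift these shares, which is why the tiles are given beside them.

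How often untreated peaks under regions were listed again with vitamin C depended on the mark. For H3K27ac 59 of 64 untreated peaks that met an iMR, 92.2% (82.7 to 97.4), and 301 of 318 that met a deMR, 94.7% (91.6 to 96.9), overlapped a vitamin C peak, against 86.8% of all untreated H3K27ac peaks. For H3K4me1 the shares were 47.6% for peaks that met an iMR and 54.8% for those that met a deMR, against 41.5% of all. The H3K4me1 peaks were wide there. The median width of untreated H3K4me1 peaks was 4178 bp where they met an iMR and 6729 bp where they met a deMR, against 1532 bp over all, and wider peaks are more often met by any region. Untreated H3K27ac peaks were wider there too, 1504 bp on iMRs and 1704 bp on deMRs, against 1027 bp over all. A listed peak over 0.5 or more of the region was found for 6.16% of iMRs and 28.2% of deMRs, against 10.2% of tiles. In the other direction, 318 of 371 vitamin C H3K27ac peaks that met a deMR, 85.7% (81.7 to 89.1), overlapped an untreated peak, against 88.65% of all. For H3K4me3 that share was 83.0% (78.7 to 86.8), against 85.7% of all. By these shares, vitamin C peaks of both marks on deMRs were slightly more often missing from the untreated list than all such peaks. They were also wider, with a median of 1639 bp against 1036 bp over all for H3K27ac. For H3K4me3 the medians were 1190 bp and 772 bp. Wider peaks overlap another list more easily, so these shares do not compare like peaks.

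Gene position separated the lists less sharply. Midpoints lay in the span of a protein-coding gene for 2007 iMRs, 44.0% (42.5 to 45.4), and 2257 deMRs, 59.6% (58.0 to 61.1), against 40.9% of tiles. The deMR share was above that of tiles on 19 of the 19 autosomes and the iMR share on 15 of them, since it was below on 4. Long noncoding RNA genes outside those spans held 7.76% of iMRs and 6.52% of deMRs, against 7.10% of tiles. Exons and introns were not separated here. The nearest gene start was a median of 73.6 kb away for iMRs and 30.2 kb for deMRs, against 86.2 kb for tiles, on the 18 autosomes with annotated starts. Only 73 iMRs, 1.66% (1.31 to 2.08), and 88 deMRs, 2.39% (1.92 to 2.94), lay within 1 kb of a gene start, against 1.52% of tiles. Distances of 5 to 50 kb held 51.3% of deMRs and 34.0% of iMRs, against 32.0% of tiles, and distances over 500 kb held 12.0% of iMRs and 5.16% of deMRs, against 17.1% of tiles.

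Along chromosomes the iMRs were spread almost evenly and the deMRs were not. Densities of iMRs ranged from 1.685 per Mb on chromosome 14 to 2.16 per Mb on chromosome 10, a 1.28-fold range. Densities of deMRs ranged from 0.994 per Mb on chromosome 3 to 2.40 per Mb on chromosome 19, a 2.42-fold range. Across the 19 chromosomes, as a description over points that share the same libraries, gene density correlated with deMR density at a Pearson correlation of 0.77 and a Spearman correlation of 0.83, and with iMR density at a Pearson correlation of 0.26 and a Spearman correlation of 0.32. Chromosome 7 had the most genes per Mb, 14.3, and yet only 1.65 deMRs per Mb.

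**Figure D3:**
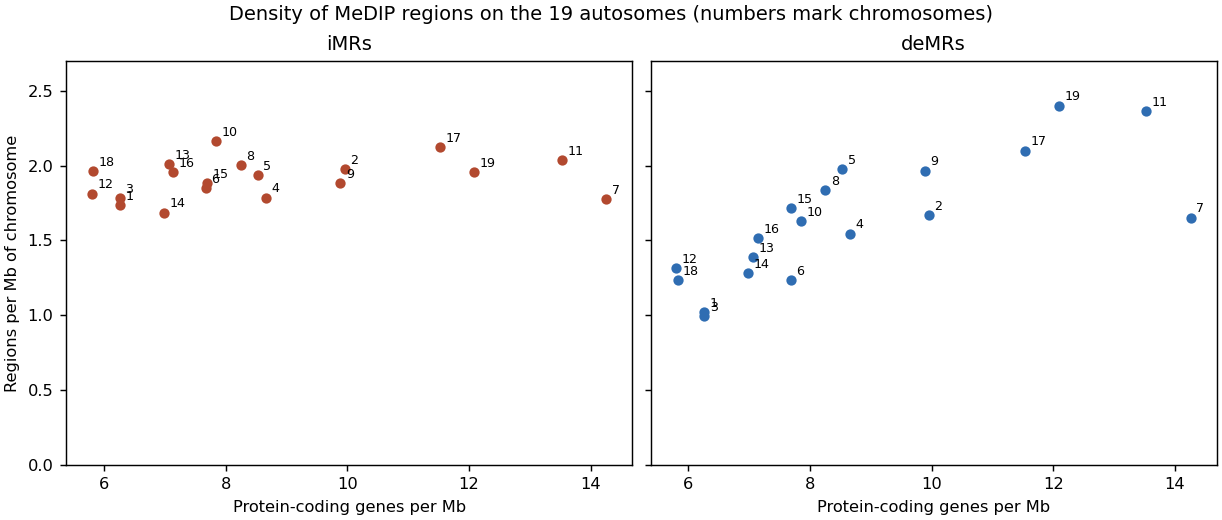
Regions per Mb against protein-coding genes per Mb for the 19 autosomes, with iMRs on the left and deMRs on the right. The iMR points stay between 1.685 and 2.16 per Mb, and the deMR points spread from 0.994 to 2.40 per Mb.

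Windows of 1 Mb showed the same at a finer scale. In the 269 windows without a protein-coding gene the means were 1.25 iMRs and 0.245 deMRs per window. In the 406 windows with more than 15 genes they were 1.90 iMRs and 3.23 deMRs. No deMR was found in 40.4% of the 2394 windows and no iMR in 18.5%. The variance of counts per window divided by their mean, which is 1 for independent placement at an even rate, was 1.26 for iMRs and 2.53 for deMRs. The fullest deMR window, with 12 deMRs and 4 iMRs, was chr16:92000001-93000000, which holds Runx1. The fullest iMR window, chr4:140000001-141000000, held 10 iMRs and 11 deMRs, so both lists were dense in the same place there.

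Close clusters were few in both lists. Joining regions less than 10 kb apart placed 411 iMRs, 9.01% (8.19 to 9.87), in 200 clusters and 422 deMRs, 11.1% (10.2 to 12.2), in 204 clusters. Some of this came from windows of 1 run, since 72 iMRs and 62 deMRs touched the region before them. Clusters of at least 3 held 0.679% of iMRs and 1.06% of deMRs at 10 kb, and 1.42% of iMRs and 4.43% of deMRs at 25 kb. With regions joined at 100 kb, a distance chosen after the data were seen, they held 12.6% of iMRs (11.6 to 13.6) and 26.1% of deMRs (24.7 to 27.6). The largest close iMR cluster had 4 regions over 7.75 kb at chr8:121264251-121272000, 134 kb from Foxl1, a forkhead factor, with no listed peak. The largest close deMR cluster had 4 regions over 24.0 kb at chr8:94409001-94433000, 1335 bp from Nlrc5, a regulator of MHC class I genes, and 3 of the 4 met a peak. Clusters of 3 deMRs lay within Sh2b2, an adaptor of cytokine receptors, Elf5, an ETS factor of epithelia, Dock8, an exchange factor for Cdc42 in leukocytes, and Atp11a, a phospholipid flippase, and in these only those of Dock8 met a peak, all 3 of them. The named iMR clusters of 3 lay in Coa8, Mrpl22 and Slc35f3 and 277 kb from Btbd3, and none of the regions in these met a listed peak.

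Neighbouring regions tended to carry the same tag. The nearest region was of the same list for 64.2% of iMRs (62.8 to 65.6) and 58.8% of deMRs (57.2 to 60.4), where the lists made up 54.6% and 45.4% of all regions. Below 1 kb the shares were 97.3% of 183 iMRs and 97.1% of 170 deMRs. Many of these were windows of 1 run, since 72 iMRs and 62 deMRs touched the region before them. A shared tag at that distance thus follows in part from how runs were cut. For neighbours 5 to 20 kb apart the shares were 57.5% of iMRs (52.9 to 62.1) and 65.6% of deMRs (61.5 to 69.5), and over 100 kb they were 65.2% of iMRs and 49.0% of deMRs.

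Genes that held regions were then counted. An iMR lay in 1584 of 20661 protein-coding autosomal genes (7.67%) and a deMR in 1854 (8.97%), and 349 genes held both. They were long genes, with a median length of 103 kb for iMRs and 65.1 kb for deMRs against 17.5 kb over all genes, so the number of regions in a gene depends on its length. Expression went opposite ways. At least 1 RPKM in the untreated library was measured for 42.0% of genes with an iMR and 67.5% of genes with a deMR, against 49.9% of all genes with a value. Per Mb of gene span there were 2.25 iMRs in genes under 0.1 RPKM, 2.39 at 0.1 to 1, 1.94 at 1 to 10, 1.69 at 10 to 100 and 0.949 above 100 RPKM. For deMRs the same classes had 1.19, 2.14, 2.89, 3.95 and 5.54 per Mb, each above the class before it. Among genes over 100 kb long the densities were 1.86 iMRs and 2.89 deMRs per Mb at 1 RPKM or more, and 2.13 iMRs and 0.973 deMRs per Mb below it. In each of the 4 length classes, genes of at least 1 RPKM had fewer iMRs and more deMRs per Mb than genes below it.

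**Figure D4:**
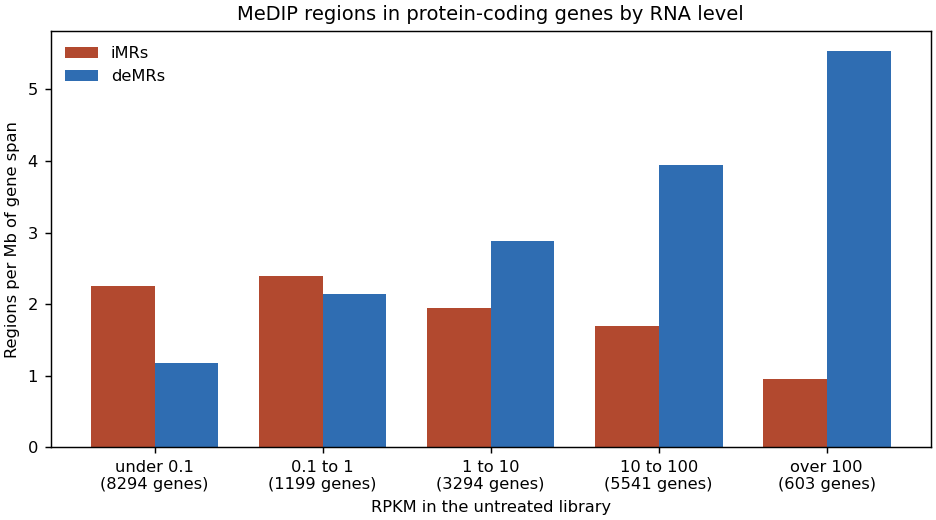
Regions per Mb of protein-coding gene span for iMRs (red) and deMRs (blue) in 5 classes of RPKM in the untreated library, with the number of genes under each class. In the class over 100 RPKM the iMR bar is the lowest of its list, at 0.949 per Mb, and the deMR bar the highest, at 5.54 per Mb.

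The genes with the most deMRs included regulators of blood formation. Runx1, a transcription factor required for blood stem cells, held 6 deMRs and 1 iMR in 225 kb and had 66.3 RPKM with vitamin C and 52.5 RPKM untreated. All 6 deMRs lay 153 to 219 kb from the annotated gene start, and 5 of them met H3K4me1 peaks of both libraries. The iMR, at chr16:92631001-92631500, lay among them and met H3K4me1 peaks of both libraries too. These 5 deMRs and the iMR all lay in 1 wide H3K4me1 peak per library, which any region there would meet. It ran 133 to 218 kb from the start with vitamin C and 133 to 219 kb untreated. Etv6, an ETS repressor of blood stem cells, held 5 deMRs in 234 kb, and its RNA was at 90.1 RPKM with vitamin C and 90.6 RPKM untreated. All 5 lay in 1 wide H3K4me1 peak per library, which any region there would meet. That peak ran 3.8 to 177 kb from the start with vitamin C and 4.5 to 188 kb untreated. The Etv6 deMR at chr6:134066001-134067000 met an H3K27ac peak of the vitamin C library only. The deMR at chr6:134154501-134155500 met an H3K27ac peak of both libraries and a hydroxymethylated region (hMeDIP iHR). Gse1, a subunit of a CoREST complex, held 6 deMRs, 4 of them on a peak, at 49.9 RPKM with vitamin C and 49.3 RPKM untreated. Foxn3, a forkhead repressor, held 6 deMRs, 2 of them on a peak, at 6.15 RPKM with vitamin C and 7.72 RPKM untreated. Dock8 held 5, Trio, a guanine nucleotide exchange factor, 5, and Med12l, a Mediator kinase module subunit, 5. Mbp and Atp11a had 4 each.

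The genes with the most iMRs were long and mostly silent in these cells. Anks1b, a neuronal scaffold protein, held 7 iMRs in 1100 kb and no deMR, and was at 0 RPKM in both libraries. Gpc6, a glypican, held 7 in 1055 kb at 0.00114 RPKM with vitamin C and 0 untreated. Ptprd and Tenm3, both neuronal cell-surface proteins, and Ankfn1 held 6 each and were listed at 0 RPKM in both libraries. Srgap1, a GTPase-activating protein, and Lsamp, a neuronal adhesion protein, held 5 each and were also listed at 0. Pde11a, a phosphodiesterase, was the exception, with 6 iMRs in 353 kb at 3.60 RPKM with vitamin C and 4.90 RPKM untreated. Among the iMRs of these 10 genes a listed peak was met by 1 in Pde11a and 1 in Ptprd and by no other. Sox5, a factor of cartilage and neurons, was on both lists, with 5 iMRs, none on a peak, and 5 deMRs, of which 3 met one.

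**Figure D5:**
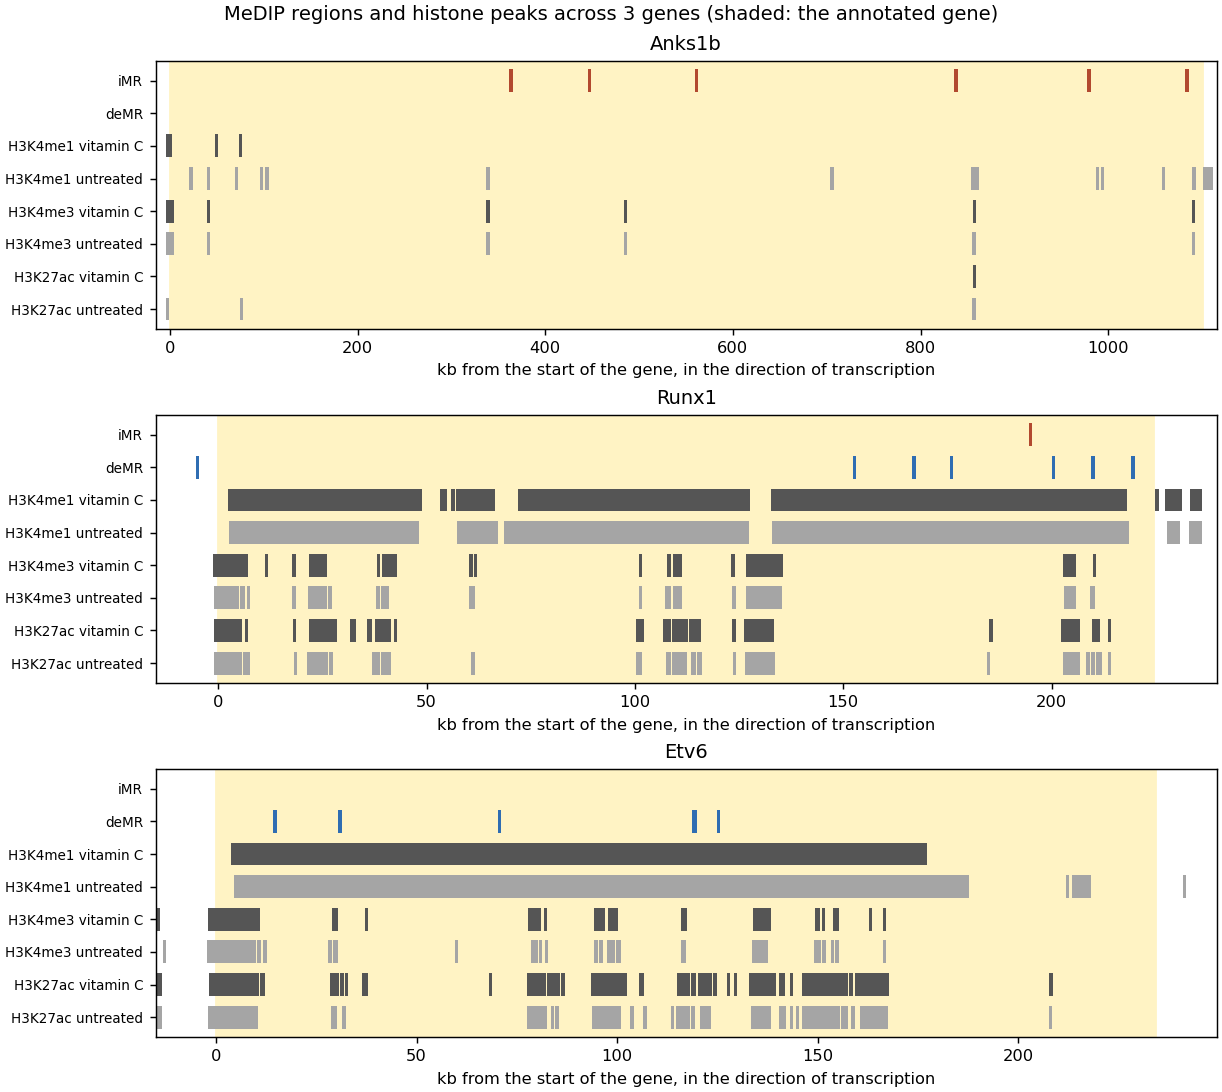
Maps of Anks1b (top), Runx1 (middle) and Etv6 (bottom) in kb from the annotated gene start, with iMRs (red), deMRs (blue) and histone peaks of the vitamin C (dark grey) and untreated (light grey) libraries. Short features are widened to be visible, so that 2 touching iMRs of Anks1b appear as 1 mark. The deMRs of Runx1 and Etv6 lie mostly inside wide H3K4me1 peaks, and the iMRs of Anks1b lie off the peaks. A further deMR lies just before the start of Runx1.

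Gene classes were chosen with earlier results of these data known, and only some of them repeated this split. Of the 38 placed genes of the GATA, RUNX, ETS and C/EBP families, 4 held iMRs (10.5%) and 10 held deMRs (26.3%), against 7.67% and 8.97% of all genes. Their 25 deMRs came to 10.9 per Mb of gene, against 2.28 over all genes, and 20 of the 25 met a listed peak, as did 864 of 2283 over all genes. Runx1 held 6 of the 25, 5 of them on a peak, and Etv6 5, all on a peak. In both genes these lay in 1 wide H3K4me1 peak per library. Elf5 held 3 deMRs, none on a peak, and was at 0 RPKM in both libraries. Genes of 10 to 100 RPKM untreated, as Runx1 and Etv6 were, held 3.95 deMRs per Mb. Among 20 myeloid transcription factors 2 held iMRs, Myb and Runx1, and 6 held deMRs. Gata2, a factor of stem cells and mast cells, had 1 deMR of 1000 bp on H3K4me1 peaks of both libraries, with 142 RPKM with vitamin C and 91.4 RPKM untreated. Cebpe, a factor of granulocyte maturation, had 1 deMR on H3K4me3 and H3K27ac peaks of both libraries. Runx2 held 3 deMRs and Runx3 1 deMR and 1 iMR.

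Other blood classes held few regions, counts too small to order the lists, where 7.67% of all genes held an iMR and 8.97% a deMR. Of 10 megakaryocyte genes 2 held an iMR, Itga2b and Itgb3, both chains of the platelet fibrinogen receptor, and 1 a deMR, Vwf. Of 17 genes in the list for stem cells and HOXA9 2 held an iMR, Erg and Myb, and 3 a deMR, Erg, Flt3 and Hlf. Of 15 monocyte and macrophage genes 1 held an iMR and 2 a deMR. Among 14 placed genes of neutrophil granules none held an iMR and 2 held a deMR. Mpo, myeloperoxidase, had a deMR at chr11:87802251-87803000 that met an H3K4me1 peak of the vitamin C library only and a hydroxymethylated region, and its RNA was at 131 RPKM with vitamin C and 796 RPKM untreated. Elane, neutrophil elastase, had a deMR at chr10:79886501-79887500 at 38.6 RPKM with vitamin C and 47.5 RPKM untreated. In the mast cell list 2 of 11 genes held deMRs, Gata2 and Hdc, the histamine-forming enzyme, and none an iMR. In the list for cytosine methylation 4 of 16 genes held a deMR, Dnmt3a, Dnmt3l, Tdg and Mbd2, and none an iMR. Of 18 immediate early genes 1 held a deMR, Fosb, at chr7:19303001-19303500. This deMR lay 6.87 kb from the start of the 7.42 kb gene, met a WGBS deMR and met no listed peak. Fosb RNA was at 26.9 RPKM with vitamin C and 0.205 RPKM untreated. In the list of immediate early genes 15 of 17 measured genes were at least 2-fold higher with vitamin C, against 2.35% of all 9564 measured genes. The 18 immediate early genes are short, with a median of 3.57 kb and 0.115 Mb in all, so few regions could fall in their spans. Regions outside the spans were not counted here. Of 19 hypoxia genes Slc2a1, the glucose transporter GLUT1, held an iMR, and Egln1, P4ha1 and P4ha2, all 2-oxoglutarate-dependent prolyl hydroxylases, held deMRs.

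Other gene families varied in which list they held. Over all genes 7.67% held an iMR and 8.97% a deMR, at 2.07 iMRs and 2.28 deMRs per Mb. Of 67 protocadherins 16 held iMRs (23.9%), with 33 regions counted per gene, and 1 held a deMR (1.49%). The clustered protocadherin genes overlap one another, so 1 region can be counted in several of them. Of 40 glutamate and GABA receptor genes 14 held iMRs (35.0%) and 4 held deMRs (10.0%), with 1.65 iMRs and 0.434 deMRs per Mb, so their iMR density was below the 2.07 per Mb of all genes. Cadherins had 0.955 iMRs and 0.637 deMRs per Mb, integrins 2.32 iMRs and 2.90 deMRs, and semaphorins and plexins 1.11 iMRs and 1.38 deMRs. Receptor tyrosine kinases had 2.56 iMRs and 1.22 deMRs per Mb, and collagens 2.44 iMRs and 1.22 deMRs per Mb. Olfactory receptors, 1104 small and almost silent genes, held 6 iMRs, 2.83 per Mb, and no deMR in 2.12 Mb. Histone and defensin genes, which span only 0.146 and 0.242 Mb, held neither. Interleukins and their receptors had 3 iMRs and 10 deMRs, 1.54 and 5.14 per Mb, in 3.85% and 11.5% of their genes. Fox genes had 3 iMRs and 12 deMRs, 1.36 and 5.46 per Mb, in 4.88% and 9.76% of their genes. The deMR shares of genes in both families were thus near that of all genes. Of the 12 deMRs Foxn3 held 6 and Foxp1, a repressor of monocyte differentiation, 3.

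RNA of genes that held regions differed little between libraries. The log2 change of vitamin C over untreated, taken as RPKM plus 0.5, had a median of −0.05 over 647 measured genes with an iMR and −0.06 over 1224 with a deMR, against −0.04 over all 9564 measured genes. Genes at least 2-fold higher with vitamin C made up 1.70% of those with an iMR (11 genes) and 1.63% of those with a deMR (20 genes), against 2.35% of all measured genes. Genes at least 2-fold lower made up 3.09% (20 genes) and 2.21% (27 genes), against 1.85%. Where a deMR met H3K27ac with vitamin C only, 3 of 53 measured genes were 2-fold higher and 0 lower, and where it met H3K27ac in the untreated library only, 0 of 15 were 2-fold changed. In the authors' deposited table of genes higher with vitamin C, 20 of 414 placed genes held an iMR (4.83%) and 50 a deMR (12.1%). In the authors' deposited table of genes lower with vitamin C, 22 of 190 held an iMR (11.6%) and 31 a deMR (16.3%), and these were longer genes, with a median of 40.45 kb against 16.3 kb. Over all measured genes 6.76% held an iMR and 12.8% a deMR, so the deMR share of the higher genes was not above it.

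Genes with a region within 1 kb of their start are the few where a change of RNA could be set beside methylation at the start. Of genes with at least 5 RPKM in either library, 15 had an iMR there and 40 a deMR. Gdf15 had a log2 change of 2.44, with 5.80 RPKM in the vitamin C and 0.660 RPKM in the untreated library, and its deMR met H3K4me1 peaks of both libraries. Igsf6, an immunoglobulin-family receptor of myeloid cells, had a log2 change of 1.47, with 8.03 RPKM with vitamin C and 2.58 RPKM untreated. The deMR of Igsf6, at chr7:121073501-121074000, also met a WGBS deMR and an H3K27ac peak listed only with vitamin C. The other starts where a deMR met a WGBS deMR were those of Irf5, Xpnpep1 and Clasp2, with log2 changes of −0.38, 0.23 and 0.02. Csf2ra was at 25.9 RPKM with vitamin C and 13.9 RPKM untreated, and Galnt6 at 148 RPKM with vitamin C and 97.0 RPKM untreated. These were the largest increases among the 40 genes. The largest decrease was that of Ndufa13, a subunit of respiratory complex I, at 64.2 RPKM with vitamin C and 92.6 RPKM untreated.

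At the iMR starts none of 18 measured genes differed 2-fold on the scale of RPKM plus 0.5. Over all measured genes 2.35% were higher and 1.85% lower, so 18 genes are too few to differ from that. At the deMR starts 2 of 47 measured genes were higher and 0 lower. Sgk1, a serum- and glucocorticoid-induced kinase, had a log2 change of 0.85, with 15.7 RPKM with vitamin C and 8.49 RPKM untreated. Ifi30, a lysosomal thiol reductase, had one of −0.94, with 2.49 RPKM with vitamin C and 5.23 RPKM untreated, a change that the added 0.5 keeps under 2-fold. S1pr3, whose start is shown above, was at 5.32 RPKM with vitamin C and 8.61 RPKM untreated, and Ddx4 at 4.10 RPKM with vitamin C and 6.61 RPKM untreated. Cul9, a cullin that binds p53, was lower too, at 3.29 RPKM with vitamin C and 5.25 RPKM untreated. The iMRs of S1pr3 and Cul9 also met WGBS iMRs, as did those of Ednrb, Sptbn4, Fhl2 and Avpr1a, which were all under 1 RPKM in both libraries. Abhd14a and Abhd14b share 1 iMR that lay before both starts. Abhd14a was at 25.4 RPKM with vitamin C and 34.1 RPKM untreated, and Abhd14b at 32.35 RPKM with vitamin C and 27.9 RPKM untreated.

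Few regions were also in another methylation list of the series. WGBS iMRs met 58 iMRs, 1.27% (0.966 to 1.64), and 5 deMRs, 0.132% (0.0429 to 0.308), against 0.247% of tiles. WGBS deMRs met 6 iMRs, 0.131% (0.0483 to 0.286), and 176 deMRs, 4.65% (4.00 to 5.36), against 0.180% of tiles. Of the 58 iMRs 13 (22.4%) met a listed peak, against 9.01% of all iMRs, and of the 176 deMRs 154 (87.5%) did, against 33.5% of all deMRs. Hydroxymethylated regions met 13 iMRs, 0.285% (0.152 to 0.487), and 89 deMRs, 2.35% (1.89 to 2.88), against 0.208% of tiles, and 77.5% of those deMRs met a peak. The MeDIP list attached to wild-type cells met 4 iMRs, 0.0876% (0.0239 to 0.224), and 328 deMRs, 8.66% (7.78 to 9.60), against 0.121% of tiles. Of those deMRs 40.2% met a peak. That list is tagged mutant and comes from MeDIP too, and whether it shares a library with the deMRs is unknown.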

How the data were processed

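The deposited region lists hold positions with no value. For histone peaks the authors deposited a p-value or a q-value, without saying which, and for PU.1 and Runx1 peaks a score that is not defined. Peaks were listed per library. RNA files hold read counts and RPKM values per Ensembl gene, both deposited by the authors. Tools named in the submitters' processing notes, without roles, are BWA, Picard, MACS2, SAMtools 0.1.16 and CASAVA 1.8.2, with the build mm10. The depth of MeDIP and ChIP libraries is unknown.

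Repeated intervals were removed from the PU.1 lists (259 with vitamin C, 1159 untreated) and the Runx1 lists (337 and 139). An overlap was 1 bp or more. Genes and gene starts came from RefSeq on GRCm38.p6, the assembly of mm10. Starts were known for 16456 of 20661 protein-coding autosomal genes, and those on chromosome 18 were not used. Background tiles were 4806503 windows of 500 bp from 3 Mb to the end of the last gene of each autosome, assembly gaps included. Intervals are exact Clopper-Pearson bounds at 95%. Of 22371 RNA identifiers 21611 matched a symbol, and genes with at least 1 RPKM in either library counted as measured. Overlap code was tested on simulated intervals. Python 3.11.15, pandas 2.3.3, NumPy 2.4.6 and SciPy 1.17.1 were used.

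The regions and gene lists were chosen with earlier results of these data known. Text names the 5 longest regions, the 5 largest clusters and the 10 fullest genes per list, up to 4 members per gene class, the 6 largest changes each way among genes of at least 5 RPKM with a region within 1 kb of the start, and up to 6 start regions shared with WGBS. Windows, the gap of 100 kb, the maps and peaks listed in 1 library were chosen after the data were seen. No test between groups was possible with 1 library each.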

Additional observations from a re-analysis of the deposited data

How the results depend on the processing

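Of 69 values recomputed under another setting 42 stayed within their counting interval or within 1.5 times, 27 moved and 0 reversed, judged without the tiles. A promoter window of 2.5 kb held 3.60% of iMRs and 5.87% of deMRs, against 3.665% of tiles, so the iMR share was below tiles there and above them at 1 kb. With peaks required over 0.5 of the region, any listed peak met 6.16% of iMRs and 28.2% of deMRs, and H3K4me1 met 5.57% and 26.1%, against 7.56% and 29.8% by 1 bp. With the stronger part of each peak list, any peak met 5.59% of iMRs and 21.2% of deMRs, and H3K4me1 3.90% and 13.4%. Clusters held 6.79% of iMRs and 7.73% of deMRs at 5 kb, 14.7% and 21.6% at 25 kb, 37.6% and 48.7% at 100 kb (added after the data were seen), and 5.36% and 7.23% with regions within 500 bp merged first. After that merging the nearest region was of the same list for 62.7% of iMRs and 57.0% of deMRs. With at least 5 RPKM, 6 genes with an iMR were higher and 8 lower, and with a deMR 16 were higher and 15 lower, which turns the balance of 20 higher and 27 lower. At 1.5-fold, 34 genes with an iMR were higher and 53 lower, and 72 with a deMR were higher and 84 lower. Fewer genes or a looser limit make up these last changes by construction. No paired analysis was possible because each group held 1 library, and no library could be left out. MeDIP and ChIP depth is unknown, so a place without a region or peak may be one with too few reads.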
